A study of Saccharomyces cerevisiae with 24 samples.

Results

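The cytosolic Hsp70 family of budding yeast and its nucleotide exchange factors were followed as 10 genes, taken by systematic name from the 6685 transcripts of the deposited table. The members were SSA1 (YAL005C), SSA2 (YLL024C), SSA3 (YBL075C), SSA4 (YER103W), SSB1 (YDL229W), SSB2 (YNL209W), SSE1 (YPL106C), SSE2 (YBR169C), FES1 (YBR101C) and SNL1 (YIL016W), and all 10 passed the filter on low values. The study asked whether the way RNA is isolated changes the relative levels of transcripts and the detection of a response, here that to heat shock. RNA-seq of polyA-enriched RNA was compared in 6 groups of 4 biological replicates: cells heat shocked for 20 min at 37 °C and unstressed cells at 30 °C, each with RNA isolated by Phenol (hot acid phenol, then cleaned on an RNeasy column with DNase), by RNeasy (a silica column kit) or by Direct-zol (a guanidinium-phenol kit). All groups shared strain BY4741, a haploid laboratory strain with deletions at HIS3, LEU2, MET17 (MET15) and URA3, and growth in synthetic complete medium. Heat shock was given by adding prewarmed medium, so heat, the added medium and the 20 min that passed cannot be told apart. For each treatment, 3 identical samples of 1 culture went to the 3 methods, so the methods were compared on technical replicates. Both kits used bead beating to lyse cells, and the paper reports higher RNA integrity with Phenol than with either kit. The part of lysis and RNA integrity in differences between methods was not tested here. Library preparation was 1 batch, and all libraries ran on 1 sequencing lane.

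Hsp70 proteins bind exposed hydrophobic stretches of unfolded or newly made proteins and let go of them in a cycle driven by ATP. J-domain proteins stimulate the hydrolysis of ATP that closes Hsp70 on its substrate, and nucleotide exchange factors replace ADP with ATP, which opens it again. In budding yeast the Ssa proteins are the general cytosolic Hsp70s, the Ssb proteins work at the ribosome on nascent chains, and the Sse proteins (the Hsp110 family), Fes1 and Snl1 are exchange factors. Genes of this system are classical targets of the heat shock factor Hsf1, which binds repeats of the unit nGAAn in alternating orientation, and of Msn2 and Msn4, which bind the stress response element AGGGG.

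Stretches of the promoters are shown for the 6 members whose upstream sequences hold the repeats named above at some distance from the ORF start. All 6 were higher after heat shock, as were 7 of the 10 members in all. A link between these letters and the heat response was not tested. SSB2, which was lower after heat shock, held a match of 2 units 34 bases before its start, too close to be shown. The sequences are from RefSeq (S288c, R64), read 5′ to 3′ on the coding strand, and the capitals mark the match. For SSA1, SSA2, SSE1 and FES1 the match has 3 units (GAANNTTCNNGAA or TTCNNGAANNTTC, which are each other's reverse complement), and for SSA4 and SSE2 it has 2 units (GAANNTTC or TTCNNGAA, which each read the same on both strands).
SSA1 (chrI:141665-141707, minus strand): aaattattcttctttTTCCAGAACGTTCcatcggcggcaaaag
SSA2 (chrXII:97691-97733, minus strand): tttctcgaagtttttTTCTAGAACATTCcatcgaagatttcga
SSA4 (chrV:364321-364358, plus strand): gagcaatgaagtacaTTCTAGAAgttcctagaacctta
SSE1 (chrXVI:352434-352476, minus strand): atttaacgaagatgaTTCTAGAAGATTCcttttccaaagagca
SSE2 (chrII:576211-576248, minus strand): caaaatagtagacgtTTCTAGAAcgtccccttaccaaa
FES1 (chrII:444837-444879, minus strand): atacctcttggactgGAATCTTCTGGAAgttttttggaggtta

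Within the 500 bases before the ORF start, the 3-unit letters were found in 4 of the 10 members, and in 1.48% of 6006 such windows. SSA1 held 3 matches, some of which overlap, and SSA2, SSE1 and FES1 held 1 each. The shorter 2-unit letters, which also lie inside the longer ones, were found in SSA1, SSA2, SSA4, SSB2, SSE1, SSE2 and FES1, and in 35.2% of all windows. AGGGG or its reverse complement CCCCT was present in SSA1 (2 matches), SSA4 (3), SSE2 (1) and SNL1 (2), and in 34.1% of windows. None of these exact letters were in the windows of SSA3 and SSB1, and repeats that depart from the letters were not searched for. A window can run into a neighbouring gene, and a match is a description of the sequence and not a measured site.

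The close pairs among the members limit how reads can be assigned. The ORFs of SSA1 and SSA2 were identical at 96.8% of aligned positions, and those of SSB1 and SSB2 at 97.4%. SSA3 and SSA4 shared 77.5% and SSE1 and SSE2 71.7%. With reads of 50 bases, 57.9% of the 50-base stretches of SSA1 and 58.2% of those of SSA2 were also in the partner, and 43.2% of those of SSB1 and of SSB2, while the other 6 members shared none with any ORF. Levels within these 2 pairs therefore depend on how the authors' counting divided shared reads. The stretch of 60 bases with the most differences between partners is shown from each ORF, with the differing bases in capitals. It is where reads can best tell the partners apart. It holds 9 differences for SSA1 and SSA2 and 11 for SSB1 and SSB2, whereas the longest run without a difference was 383 bases in the first pair and 563 bases in the other.
SSA1 (chrI:139712-139771, minus strand): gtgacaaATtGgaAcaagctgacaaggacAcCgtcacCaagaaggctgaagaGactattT
SSA2 (chrXII:95766-95825, minus strand): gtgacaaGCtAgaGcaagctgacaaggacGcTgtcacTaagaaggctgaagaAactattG
SSB1 (chrIV:45312-45371, plus strand): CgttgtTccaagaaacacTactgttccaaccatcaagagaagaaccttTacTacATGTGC
SSB2 (chrXIV:253306-253365, plus strand): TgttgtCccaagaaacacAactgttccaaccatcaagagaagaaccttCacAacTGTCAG

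The 10 members are single-exon ORFs on 8 chromosomes of the R64 build, and none overlaps another annotated gene. SSA1 lies at chrI:139503-141431, SSA2 at chrXII:95566-97485, SSA3 at chrII:84499-86448 and SSA4 at chrV:364589-366517. SSB1 lies at chrIV:44065-45906 and SSB2 at chrXIV:252059-253900. Among the exchange factors, SSE1 lies at chrXVI:350194-352275, SSE2 at chrII:573915-575996, FES1 at chrII:443821-444693 and SNL1 at chrIX:321454-321933. SSA3, SSE2 and FES1 thus share chromosome II.

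Values are TPM, the number of transcripts of a gene per fixed number of transcripts in the library. They correct for transcript length, so that levels of different genes can be set side by side. They carry no read depth, which was not used here, and they are relative abundances, since the sum is fixed for each library. For tests, TPM were scaled between libraries (factors 0.776 to 1.27), a pseudocount of 1 was added, and log2 values were fitted with limma over 6137 transcripts in 1 model of the 6 groups and the biological replicate. A transcript is said to be called at a Benjamini-Hochberg FDR under 0.01, and every fold change is on the log2(scaled TPM + 1) scale. Log2 fold changes are given ± SE, and TPM of single libraries in the order of replicates 1 to 4. The p-values rest on the spread left after group and biological replicate, pooled over all 24 libraries. This treats samples split from 1 culture as independent, so it mixes technical spread with spread between the 4 biological replicates. P-values of the heat response can therefore be too small. The model matched samples by replicate number across both treatments, and not within each. It thus does not fully use the match between samples of 1 culture, and p-values of differences between methods can be too large. In bulk samples, fewer cells with a transcript and less of it per cell cannot be told apart. The strain label was checked first: no library held more than 0.1 TPM of LEU2, MET17 or URA3. STE2, which MATa cells express, had 253 to 866 TPM, and the partly deleted HIS3 had 47.9 to 112 TPM. STE3, for which a level near 0 was planned in MATa cells, had 3.53 to 14.7 TPM, low but above 0 in each library.

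After heat shock, 7 members were higher and 3 were lower, in the same direction with Phenol, RNeasy and Direct-zol. The stress-inducible SSA4 had the largest change, at 7.27, 7.47 and 7.61 on the log2 scale with the 3 methods. SSA3, SSE2 and SSA1 followed, then SSE1, and then SSA2 and FES1. The ribosome-bound SSB1 and SSB2 were 7.92 to 11.1 times lower, and SNL1 was lower by less than 1 on the log2 scale. All 10 were called with each method, where 63.9% of transcripts were called with Phenol, 63.4% with RNeasy and 63.7% with Direct-zol. The higher calls were 31.1%, 31.3% and 31.7% of all transcripts, and the lower calls 32.8%, 32.1% and 32.1%. The members' median absolute change was 3.09, 3.08 and 3.12 on the log2 scale, against 0.51, 0.51 and 0.50 over all transcripts. Their median signed change was 1.59 with Phenol and 1.53 with Direct-zol, with RNeasy just below, and that of all transcripts was 0.00, 0.01 and 0.02.

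**Figure D1:**
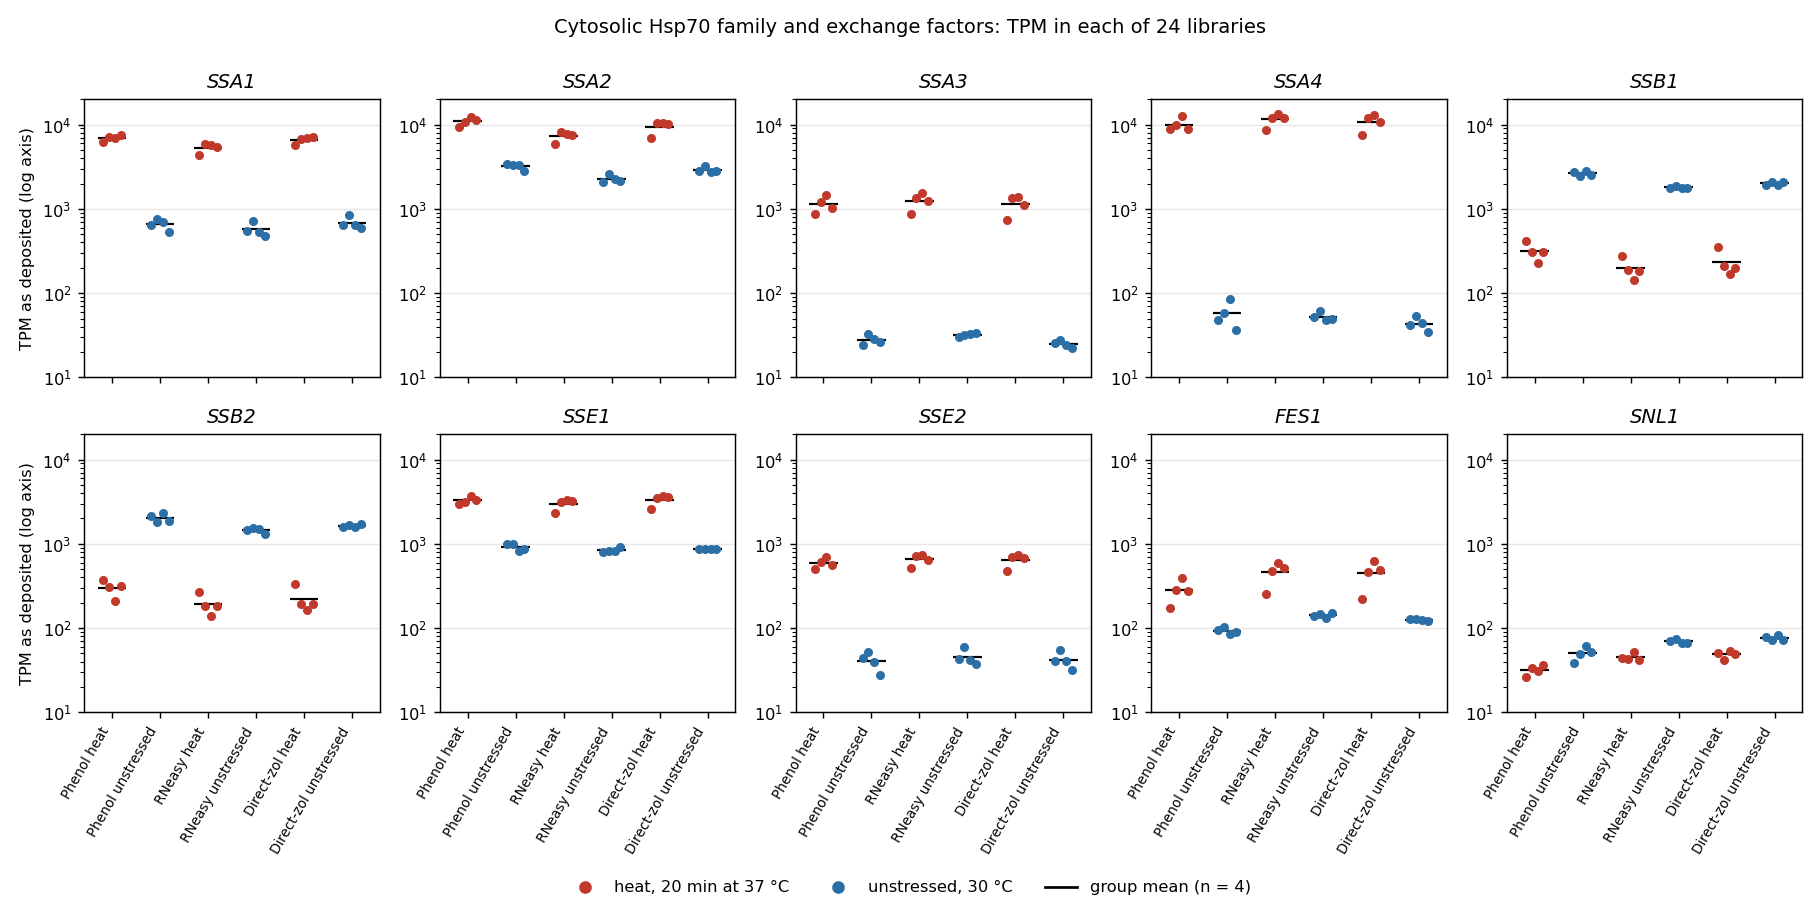
TPM of the 10 members in each of the 24 libraries, on a log axis, with heat-shocked (red) left of unstressed (blue) libraries for each isolation method and a line at the mean of 4. SSA4 lies between 7563 and 13274 TPM in the heat-shocked libraries and between 34.5 and 86.3 TPM in the unstressed libraries, while SSB1 lies between 144 and 415 TPM in the heat-shocked libraries and between 1766 and 2806 TPM in the unstressed libraries.

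Among the general cytosolic Hsp70s, SSA4 encodes an isoform that is scarce in growing cells and made under stress. SSA4 had 8802, 10009, 12489.7 and 8798 TPM in heat-shocked Phenol libraries, against 47.9, 58.8, 86.3 and 36.9 TPM in unstressed ones. With RNeasy it had 8612, 11997, 13274 and 12126 TPM after heat shock and 51.7, 61.5, 48.0 and 49.5 TPM in unstressed cells. With Direct-zol it had 7563, 11955, 12837 and 10817 TPM after heat shock and 41.9, 53.3, 44.1 and 34.5 TPM in unstressed cells. No heat-shocked library came near an unstressed one, and biological replicate 1 was the lowest or next to lowest of the heat-shocked libraries with every method. The fold change was 154 with Phenol (log2 7.27 ± 0.18), 177 with RNeasy and 196 with Direct-zol (largest limma adjusted p = 4.7e-17). By size of increase it ranked 3, 2 and 2 of the 6137 transcripts.

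SSA3, the other stress-inducible isoform, had 880.5 to 1443 TPM in heat-shocked and 24.5 to 32.8 TPM in unstressed Phenol libraries. It had 873 to 1540.1 TPM against 30.4 to 33.7 TPM with RNeasy, and 743 to 1402 TPM against 22.4 to 28.2 TPM with Direct-zol. Its log2 fold change was 5.08 ± 0.13, 4.94 ± 0.13 and 5.13 ± 0.13 with the 3 methods (limma adjusted p at most 1.61e-16). The lowest heat-shocked library, Direct-zol replicate 1, was far above every unstressed library. SSA3 changed 30.7- to 35.0-fold and stayed well below SSA4 after heat shock, at 1133 ± 243 TPM against 10025 ± 1739 TPM for SSA4 with Phenol (SD, n = 4).

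SSA1 encodes an isoform that growing cells already make. SSA1 had 6196, 7053, 6959 and 7497 TPM in heat-shocked Phenol libraries, against 639, 759.9, 693 and 528 TPM in unstressed ones. With RNeasy it had 4351, 5888, 5668 and 5443 TPM after heat shock and 546, 719.6, 538 and 478 TPM in unstressed cells. With Direct-zol it had 5703, 6710.4, 6968 and 7217 TPM after heat shock and 649, 849, 642 and 589.5 TPM in unstressed cells. The lowest heat-shocked library, RNeasy replicate 1, was above every unstressed library. The increase was 9.21-fold with Phenol (log2 3.20 ± 0.13), 7.82-fold with RNeasy and 7.94-fold with Direct-zol (limma adjusted p at most 2.13e-13).

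SSA2, whose protein is nearly the same as that of SSA1, is the isoform with the highest level in growing cells. SSA2 had 9274, 10846, 12281 and 11331 TPM in heat-shocked Phenol libraries, against 3447, 3333, 3314 and 2843 TPM in unstressed ones. With RNeasy it had 5892, 8228, 7747 and 7601 TPM after heat shock and 2089, 2567, 2267 and 2121 TPM in unstressed cells. With Direct-zol it had 6944, 10439, 10352 and 10054 TPM after heat shock and 2811, 3207, 2716 and 2782 TPM in unstressed cells. The groups did not overlap within any method, and Direct-zol replicate 1 stood below the other 3 heat-shocked libraries of its method. The increase was smaller than for the other SSA genes, at log2 1.55 ± 0.14 with Phenol, 1.43 ± 0.14 with RNeasy and 1.39 ± 0.14 with Direct-zol (limma adjusted p at most 3.42e-08). Since SSA1 and SSA2 share reads, the sum of the pair was also fitted, and it rose by 1.99, 1.90 and 1.87 on the log2 scale with Phenol, RNeasy and Direct-zol.

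The make-up of the SSA transcripts differed between heat-shocked and unstressed cells. SSA2 accounted for 37.7% ± 1.26 of the summed TPM of the 4 SSA genes in heat-shocked Phenol libraries and 81.4% ± 1.66 in unstressed ones (SD, n = 4 each). SSA4 accounted for 34.4% ± 2.86 in heat-shocked and 1.43% ± 0.463 in unstressed Phenol libraries. With RNeasy, SSA4 reached 45.1% ± 1.68 after heat shock, against 1.81% ± 0.102 in unstressed cells, and with Direct-zol 38.3% ± 2.08 against 1.19% ± 0.133. The share of SSA4 after heat shock was higher in every RNeasy library (43.7 to 47.0%) than in any Phenol (30.7 to 37.7%) or Direct-zol library (36.1 to 40.7%). The share of SSA1 differed less. It was higher without overlap in heat-shocked than in unstressed cells with Phenol (20.98 to 26.2% against 15.4 to 18.2%) and with Direct-zol (22.05 to 27.2% against 17.2 to 20.5%), and overlapped with RNeasy (20.1 to 22.1% against 17.8 to 21.3%). This share rests on the division of reads with SSA2. These shares are descriptions of TPM and were not tested.

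**Figure D2:**
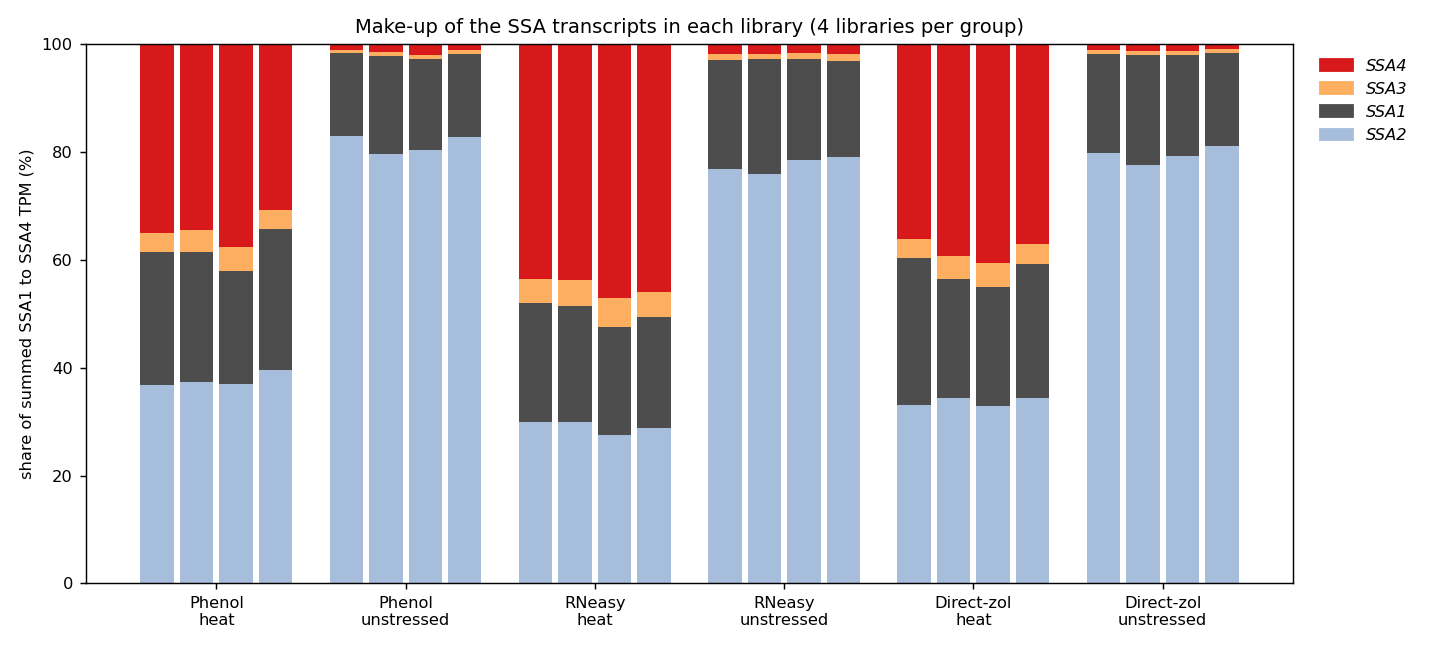
Share of the summed TPM of SSA1 to SSA4 taken by each gene, in percent, with 1 bar per library and 4 libraries per group. SSA4 (red) takes 30.7 to 37.7% in heat-shocked Phenol libraries and 1.07 to 2.09% in unstressed ones, where SSA2 (light blue) takes 79.7 to 82.9%.

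The SSB genes encode the Hsp70 that sits at the ribosome exit and meets nascent chains, and both were lower after heat shock. SSB1 had 415, 312, 226 and 307 TPM in heat-shocked Phenol libraries, against 2734, 2451, 2806 and 2552 TPM in unstressed ones. With RNeasy it had 276, 187, 144 and 184 TPM after heat shock and 1766, 1858, 1789 and 1775 TPM in unstressed cells. With Direct-zol it had 356, 208, 168 and 197 TPM after heat shock and 1942, 2062, 1940.2 and 2078 TPM in unstressed cells. Replicate 1 kept the most SSB1 after heat shock and replicate 3 the least with each method, and no heat-shocked library overlapped an unstressed one. The log2 fold change was -3.30 ± 0.16 with Phenol, -3.48 ± 0.16 with RNeasy and -3.47 ± 0.16 with Direct-zol (limma adjusted p at most 8.75e-13). Ordered from the largest increase, it ranked 6119, 6125 and 6126 of the 6137 transcripts.

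SSB2, which encodes a nearly identical protein, was lower as well. It had 211 to 375 TPM in heat-shocked and 1836 to 2317 TPM in unstressed Phenol libraries, 139.6 to 266 against 1324 to 1536 TPM with RNeasy, and 162 to 332 against 1577 to 1712 TPM with Direct-zol. Its log2 fold changes were -2.98 ± 0.17, -3.20 ± 0.17 and -3.24 ± 0.17 (limma adjusted p at most 6.77e-12). The summed pair of SSB1 and SSB2 was at -3.15, -3.35 and -3.37 on the log2 scale with Phenol, RNeasy and Direct-zol. SSB1 made up 51.1% ± 1.32 of the SSB transcripts in heat-shocked and 56.5% ± 1.21 in unstressed Phenol libraries. The summed SSA transcripts were 50.2 ± 18.4 times the summed SSB transcripts in heat-shocked Phenol libraries and 0.853 ± 0.0892 times in unstressed ones. With RNeasy these ratios were 70.4 ± 25.9 and 0.896 ± 0.0685, and with Direct-zol 69.2 ± 27.5 and 0.997 ± 0.0861.

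Among the exchange factors, SSE1 encodes the main Hsp110, which growing cells make. SSE1 had 2971 to 3685 TPM in heat-shocked and 819.9 to 991 TPM in unstressed Phenol libraries. It had 2349 to 3337 against 793 to 928 TPM with RNeasy and 2582 to 3668 against 859.8 to 875 TPM with Direct-zol. The increase was 1.63 ± 0.11, 1.56 ± 0.11 and 1.63 ± 0.11 on the log2 scale (limma adjusted p at most 2.91e-10). SSE2, its stress-inducible relative, changed more and stayed lower: it had 509 to 689.8 TPM in heat-shocked and 27.8 to 52.4 TPM in unstressed Phenol libraries. RNeasy gave 510.4 to 745 against 38.0 to 59.0 TPM, and Direct-zol 479 to 738 against 32.1 to 55.1 TPM. No member of the SSE pair overlapped between heat-shocked and unstressed cells. The log2 fold change of SSE2 was 3.64 ± 0.15, 3.56 ± 0.15 and 3.62 ± 0.15 with Phenol, RNeasy and Direct-zol (limma adjusted p at most 1.41e-13). SSE2 made up 15.3% ± 0.869 of the SSE transcripts in heat-shocked and 4.25% ± 0.838 in unstressed Phenol libraries.

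FES1 encodes an exchange factor of the HspBP1 type, built of armadillo repeats, and had the largest coefficient of variation among the members after heat shock, 31.6 to 37.6% with the 3 methods. FES1 had 173, 283, 390.1 and 276 TPM in heat-shocked Phenol libraries, against 94.5, 104, 85.9 and 89.9 TPM in unstressed ones. With RNeasy it had 252, 481, 589 and 521 TPM after heat shock and 138, 146, 133 and 151 TPM in unstressed cells. With Direct-zol it had 220.0, 457, 624 and 485 TPM after heat shock and 129, 127, 124 and 123 TPM in unstressed cells. Replicate 1 was the lowest heat-shocked library with every method and lay nearest to the unstressed libraries, without overlapping those of its own method. The increase was 1.32 ± 0.21, 1.36 ± 0.21 and 1.42 ± 0.21 on the log2 scale (limma adjusted p at most 1.83e-05).

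SNL1, whose protein is an exchange factor with a BAG domain anchored in the membrane of the endoplasmic reticulum, was lower after heat shock. SNL1 had 26.2, 33.8, 30.8 and 36.3 TPM in heat-shocked Phenol libraries, against 38.2, 49.4, 61.5 and 52.7 TPM in unstressed ones. With RNeasy it had 44.7, 43.1, 52.3 and 41.7 TPM after heat shock and 70.7, 73.8, 66.5 and 67.3 TPM in unstressed cells. With Direct-zol it had 50.5, 41.9, 53.1 and 49.5 TPM after heat shock and 78.0, 73.0, 83.6 and 72.7 TPM in unstressed cells. The groups lay apart within each method, with Phenol by the small margin between 36.3 and 38.2 TPM. The log2 fold change was -0.85 ± 0.11, -0.86 ± 0.11 and -0.95 ± 0.11 with the 3 methods (limma adjusted p at most 1.85e-06). Of the 4 exchange factors, 3 were thus called higher and SNL1 lower.

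**Figure D3:**
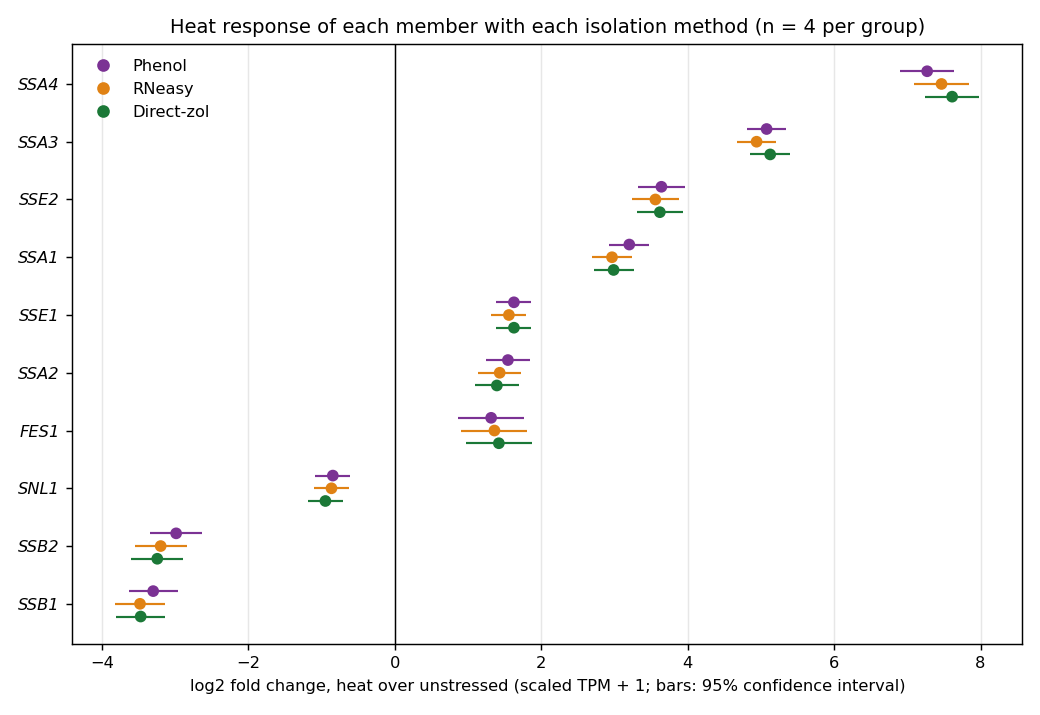
Heat response of each member with each isolation method as the log2 fold change of heat-shocked over unstressed cells, with 95% confidence intervals (limma, n = 4 per group). Values run from 7.61 for SSA4 with Direct-zol to -3.48 for SSB1 with RNeasy, and for each member the intervals of the 3 methods overlap.

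The order of the members changed with heat shock. In unstressed cells SSA2 was highest with each method, followed by SSB1, SSB2, SSE1 and SSA1, and each of these lay apart from its neighbour in all 4 libraries (in Phenol 3234 ± 267, 2636 ± 163, 2038 ± 221, 917 ± 84.8 and 655 ± 98.2 TPM, SD, n = 4). FES1, SSA4, SNL1, SSE2 and SSA3 had at most 151 TPM in any unstressed library, and several of these neighbours overlapped. SSA4 and SSE2 overlapped with each method, and with Phenol all neighbours from FES1 down to SSA3 overlapped. After heat shock SSA4 and SSA2 led. SSA4 lay above SSA2 in 4 of 4 libraries with RNeasy, without overlap, and with Direct-zol, where the ranges overlapped, whereas SSA2 lay above SSA4 in 3 of 4 Phenol libraries. SSA1, SSE1, SSA3 and SSE2 followed with each method, with an overlap between SSA2 and SSA1 with Direct-zol, and SNL1 was lowest. SSB1 and SSB2, which overlapped with each method, came below SSE2. The 10 members together made up 2.96 to 3.84% of all TPM in heat-shocked and 0.892 to 1.03% in unstressed Phenol libraries. With RNeasy they made up 2.34 to 3.32% after heat shock and 0.697 to 0.788% in unstressed cells, and with Direct-zol 2.50 to 3.70% and 0.805 to 0.899%.

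The size of the heat response differed between biological replicates in a way that the methods shared for most members. Replicate 1 had the smallest absolute response in 24 of the 30 combinations of member and method, and replicate 3 the largest in 19. For SSA4, replicate 3 had the smallest response with Phenol and the largest with RNeasy, and for SNL1 the reverse. FES1 was the clearest case, with 0.61, 0.58 and 0.43 in replicate 1 and 1.87, 1.88 and 2.02 in replicate 3 on the log2 scale with Phenol, RNeasy and Direct-zol. For SSB1 the values were -2.98, -2.96 and -2.78 in replicate 1 and -3.93, -3.88 and -3.82 in replicate 3. Among all transcripts with a mean of at least 10 TPM in either group and a mean absolute response of at least 1 on the log2 scale, replicate 1 had the smallest response for 41.7% of 1387 with Phenol, 58.1% of 1406 with RNeasy and 69.9% of 1412 with Direct-zol. In that set replicates 3 and 4 were close, with median absolute responses of 1.83 and 1.82 with Phenol. The medians were 1.805 and 1.821 with RNeasy, and 1.85 and 1.84 with Direct-zol. The part of culture, timing or temperature in these replicate differences was not tested. No member lost its call in the heat response when replicate 1, or any other replicate, was left out.

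**Figure D4:**
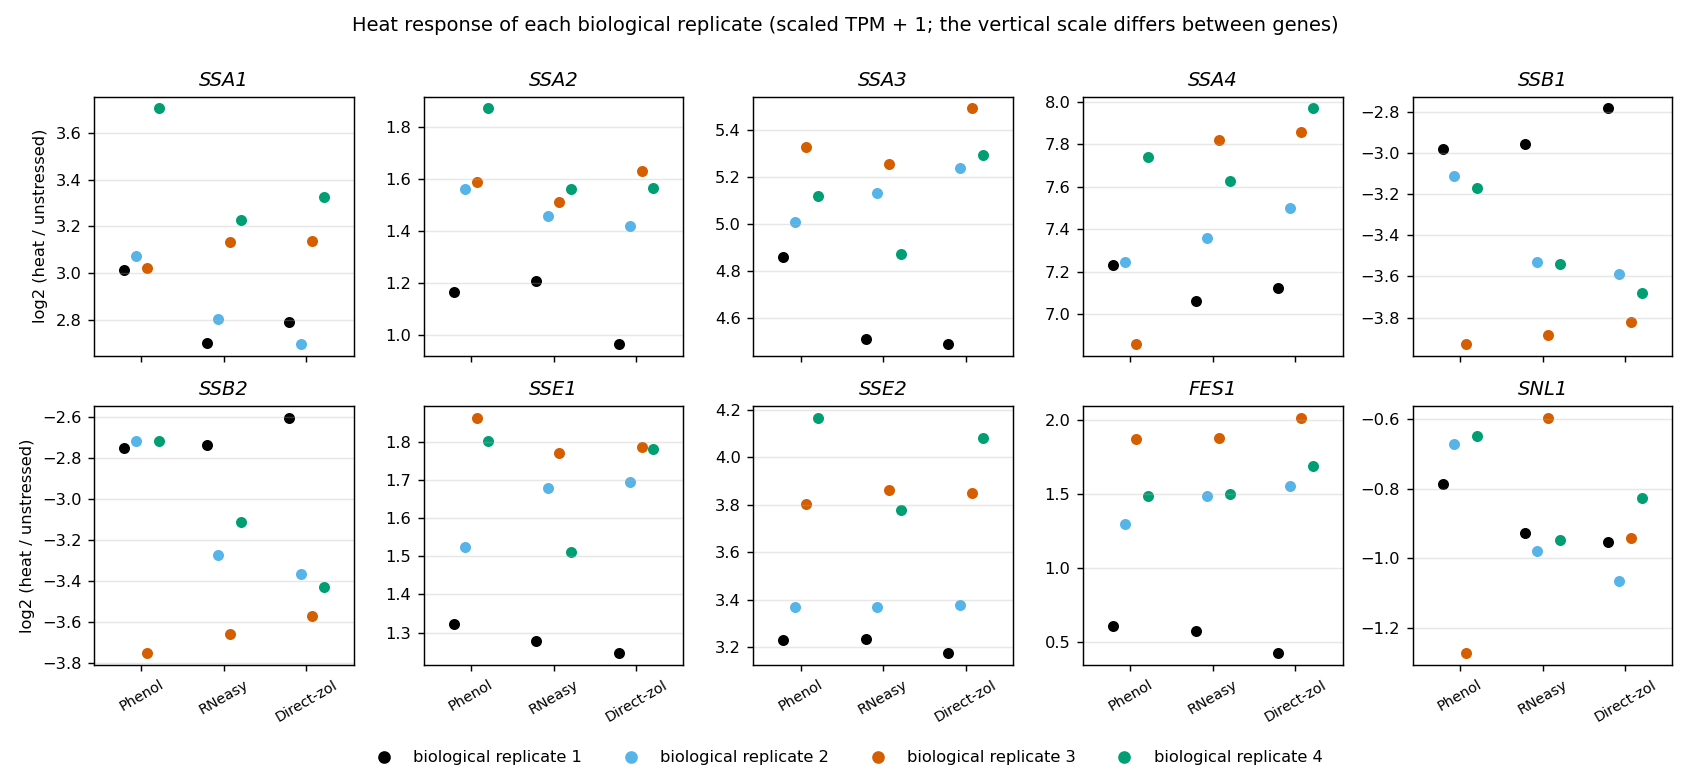
Log2 ratio of heat-shocked to unstressed scaled TPM + 1 for each biological replicate and isolation method, 1 panel per member with its own vertical scale. Replicate 1 (black) lies nearest to 0 in most panels, as for FES1 with 0.61, 0.58 and 0.43 against 1.87, 1.88 and 2.02 in replicate 3 (orange).

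The test of whether the heat response itself differed between methods made no call. For Phenol vs. RNeasy, Phenol vs. Direct-zol and RNeasy vs. Direct-zol, limma called 0 of 10 members and 0 of 6137 transcripts at an FDR under 0.01, and at an unadjusted p under 0.05 it gave 0 members each and 267, 270 and 69 transcripts. These counts do not show that the responses were equal. Over the 30 tests of members, the 95% confidence intervals reached as low as -0.86 (SSA4, Phenol vs. Direct-zol, difference -0.34) and as high as 0.76 (SSB2, Phenol vs. Direct-zol, difference 0.26) on the log2 scale. For SSA1, where Phenol gave the larger response, the difference from RNeasy was 0.24 with an interval from -0.15 to 0.62.

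Levels, in contrast, differed between methods for several members. In unstressed cells 5 members were called higher with Phenol than with RNeasy, and 0 lower, where 41.8% of all transcripts were called (22.1% higher and 19.8% lower). The 5 were the abundant, growth-expressed members SSA1, SSA2, SSB1, SSB2 and SSE1. The members' median was 0.39 on the log2 scale, and that of all transcripts -0.01. SSB1 had 2734, 2451, 2806 and 2552 TPM with Phenol and 1766, 1858, 1789 and 1775 TPM with RNeasy, which did not overlap. Its log2 difference was 0.85 ± 0.16 (limma adjusted p = 0.000207). SSA2 differed by 0.81 ± 0.14 and SSB2 by 0.78 ± 0.17 (adjusted p = 8.63e-05 and 0.000678), in 4 of 4 replicates.

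SSA1 and SSE1 were called with smaller differences, 0.50 ± 0.13 and 0.42 ± 0.11 (limma adjusted p = 0.00337 and 0.00453). After scaling both were higher with Phenol in 4 of 4 replicates, with the groups apart for SSE1 and overlapping for SSA1. In the deposited TPM the groups overlapped for both. Both calls ended on TPM as deposited, where the differences were 0.20 and 0.12 (adjusted p = 0.129 and 0.333). Without scaling, the median of all transcripts was -0.28 in this comparison, so SSA1 and SSE1 stood above the median with and without scaling. SSB2 also lost its call without scaling (0.49, adjusted p = 0.0122), and SNL1 was then called lower with Phenol (-0.47, adjusted p = 0.000878). Without scaling, 2606 of 6137 transcripts were called lower. Under quantile normalization SSA1 and SSE1 were both at 0.12 and not called (adjusted p = 0.377 and 0.215), and SSE1 was not called with only the compared libraries (adjusted p = 0.0104). The call of SSA1 was lost without replicate 1 or 3, that of SSE1 without replicate 2, 3 or 4, and that of SSB2 without replicate 4 (adjusted p = 0.0108).

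After heat shock SSA1, SSA2, SSB1, SSB2 and SSE1 were again called higher with Phenol than with RNeasy and 0 members lower, where 43.7% of all transcripts were called (22.6% higher and 21.1% lower). The members' median was 0.35 on the log2 scale, and that of all transcripts 0.00. SSB1 had 415, 312, 226 and 307 TPM with Phenol and 276, 187, 144 and 184 TPM with RNeasy, and was higher with Phenol in 4 of 4 replicates although the ranges overlapped. The log2 difference was 1.03 ± 0.16 for SSB1, 0.99 ± 0.17 for SSB2 and 0.93 ± 0.14 for SSA2 (limma adjusted p at most 6.05e-05). SSA1 differed by 0.73 ± 0.13 and SSE1 by 0.49 ± 0.11 (adjusted p = 9.88e-05 and 0.00134). The stress-inducible members were not called: SSA3 differed by 0.21 (95% interval -0.06 to 0.48), SSA4 by 0.16 (-0.21 to 0.53) and SSE2 by 0.21 (-0.11 to 0.52). Under quantile normalization SSA1, SSA2 and SSE1 were no longer called, and SSA4 was lower with Phenol (-0.61, limma adjusted p = 0.00794). SSE1 also lost its call without scaling (adjusted p = 0.276) and without replicate 4 (adjusted p = 0.0152). Without scaling, FES1 and SNL1 were called lower with Phenol (-0.70 and -0.51, adjusted p = 0.00639 and 0.000426), where 2941 of 6137 transcripts were called lower.

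The comparison of Phenol with Direct-zol uses the same Phenol libraries as that with RNeasy. In unstressed cells 1 of 10 members was called, SNL1, where 44.5% of all transcripts were called (22.9% higher and 21.6% lower). The members' median was 0.21 on the log2 scale, and that of all transcripts -0.02. SNL1 was lower with Phenol, 38.2, 49.4, 61.5 and 52.7 TPM, than with Direct-zol, 78.0, 73.0, 83.6 and 72.7 TPM, at -0.52 ± 0.11 on the log2 scale (limma adjusted p = 0.000769). After heat shock 3 members were called, where 42.7% of all transcripts were called (21.8% higher and 20.8% lower), and the medians were 0.18 and -0.03. SNL1 was again lower with Phenol, at -0.42 ± 0.11 (adjusted p = 0.00441), and SSB1 and SSB2 were higher, at 0.66 ± 0.16 and 0.66 ± 0.17 (adjusted p = 0.00193 and 0.00262). SNL1 did not overlap between Phenol and Direct-zol in either treatment, whereas SSB1 and SSB2 overlapped after heat shock and were higher with Phenol in 4 of 4 replicates. Each of these calls was lost when single replicates were left out. SNL1 lost its call in unstressed cells without replicate 1 or 2 (adjusted p = 0.0134 and 0.011) and after heat shock without replicate 1, 2 or 3, and SSB1 and SSB2 lost theirs without replicate 2 or 4. Without replicate 2, 0 members were called after heat shock. SNL1 was not called with only the compared libraries in heat-shocked or unstressed cells (adjusted p = 0.0178 and 0.0115), nor after heat shock under quantile normalization (0.0103). SSB1 and SSB2 were not called after heat shock without scaling (adjusted p = 0.0136 and 0.015). With the replicate blocked within each treatment, SSB1 and SSB2 were called in unstressed cells too (adjusted p = 8.84e-05 and 0.00231), and SSA2 was called after heat shock (0.41, adjusted p = 0.00197). That block called 3072 of 6137 transcripts in unstressed cells and 2930 after heat shock.

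FES1 ran the other way from the abundant members. It was lower with Phenol than with RNeasy and than with Direct-zol in 4 of 4 replicates, in heat-shocked as in unstressed cells. In unstressed cells the Phenol libraries (94.5, 104, 85.9 and 89.9 TPM) did not overlap those of RNeasy (138, 146, 133 and 151 TPM) or Direct-zol (129, 127, 124 and 123 TPM). After heat shock the Phenol libraries overlapped those of both kits. There the log2 difference was -0.35 ± 0.21 against RNeasy and -0.44 ± 0.21 against Direct-zol, and in unstressed cells -0.31 ± 0.21 and -0.34 ± 0.21. None of the 4 was called (limma adjusted p = 0.176, 0.0915, 0.246 and 0.195). When each replicate was blocked within each treatment, so that the 3 samples of 1 culture were matched, all 4 were called (adjusted p = 0.000221, 2.67e-05, 0.000756 and 0.000337). That setting called 2988, 2930, 2835 and 3072 of 6137 transcripts in the same 4 comparisons. FES1 was also called after heat shock without replicate 1, at -0.41 against RNeasy and -0.54 against Direct-zol (adjusted p = 0.009 and 0.00156). Of 6179 transcripts, 2240 and 2189 were called there.

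**Figure D5:**
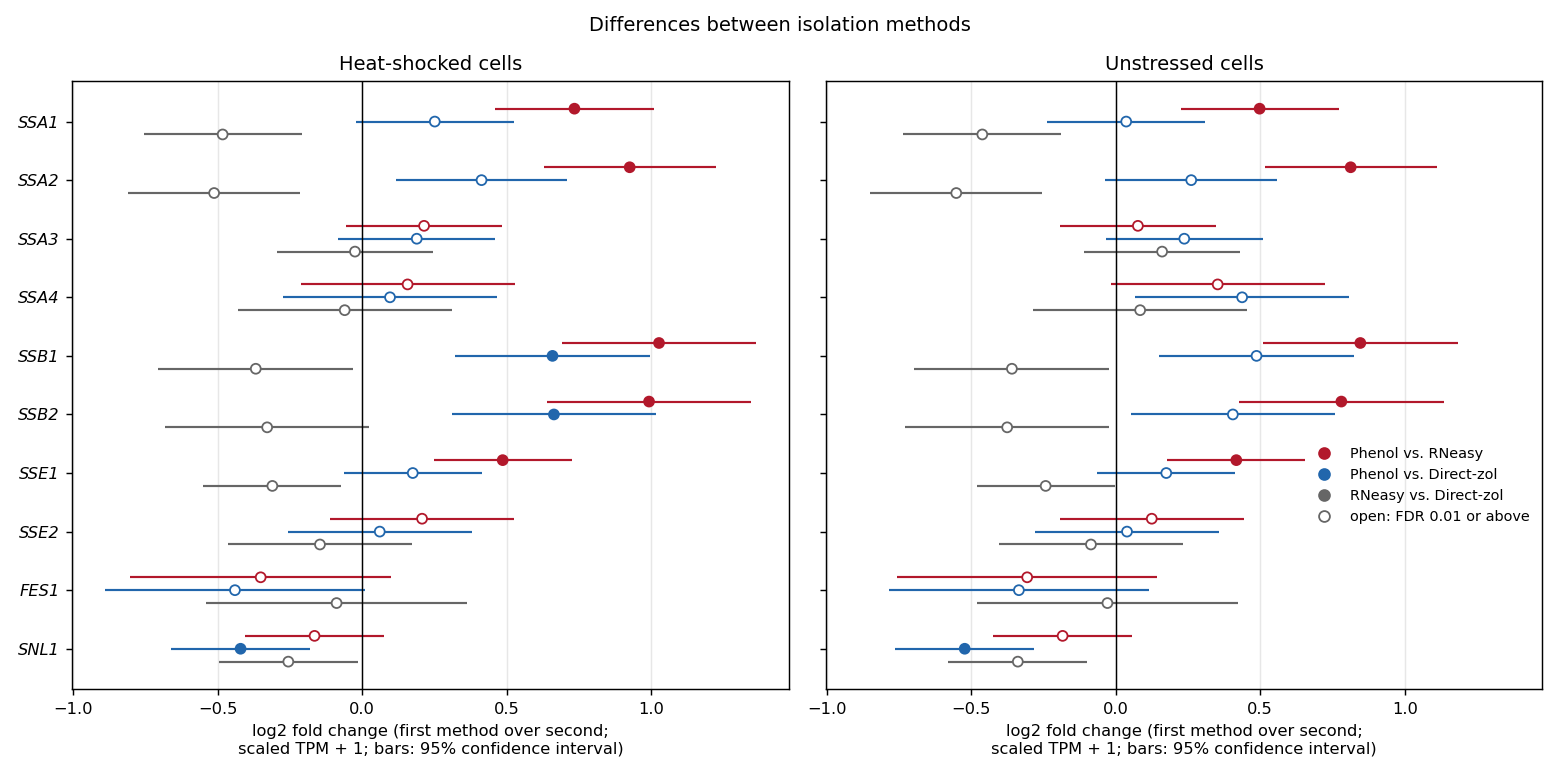
Log2 differences between isolation methods, first method over second, for each member in heat-shocked (left) and unstressed cells (right), with 95% confidence intervals (limma) and filled points for an FDR under 0.01. SSB1 lies at 1.03 after heat shock and 0.85 in unstressed cells for Phenol vs. RNeasy (red), and all points of RNeasy vs. Direct-zol (grey) are open.

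Between the kits, limma called 0 of 10 members in either treatment, where 4.43% of all transcripts were called in heat-shocked cells (3.68% higher and 0.750% lower) and 3.89% in unstressed cells (2.93% higher and 0.961% lower). With only the compared libraries, lower calls outnumbered higher ones over all transcripts, at 141 higher and 158 lower in heat-shocked and 178 higher and 283 lower in unstressed cells. At an unadjusted p under 0.05 there were 5 members in heat-shocked and 6 in unstressed cells, where 1553 and 1516 of the 6137 transcripts passed. The members' median was -0.28 and -0.29 on the log2 scale, and that of all transcripts -0.03 and -0.02. The lowest values were those of SSA2, -0.51 ± 0.14 after heat shock and -0.55 ± 0.14 in unstressed cells, and of SSA1, -0.48 ± 0.13 and -0.46 ± 0.13. Both were lower with RNeasy than with Direct-zol in 4 of 4 replicates in both treatments. SSA1, SSA2 and SSB1 were called in both treatments when the replicate was blocked within each treatment (adjusted p at most 0.00817), and also when only the libraries compared were fitted. Of the 6137 transcripts, the block called 424 in heat-shocked and 402 in unstressed cells. With only the libraries compared, 299 and 461 were called.

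The genes that work with these Hsp70s were counted as whole lists. Of all transcripts, 31.1 to 31.7% were called higher and 32.1 to 32.8% lower after heat shock with the 3 methods. Of 11 cytosolic J-domain proteins, 4 were called higher and 4 lower after heat shock with Phenol, and 5 and 3 with each kit. Their median was 0.13, 0.21 and 0.25 on the log2 scale with Phenol, RNeasy and Direct-zol, near that of all transcripts given above. SIS1, an essential J-domain partner of Ssa, was higher by 2.28 ± 0.19, 2.41 ± 0.19 and 2.42 ± 0.19 on the log2 scale (SE) with Phenol, RNeasy and Direct-zol, and APJ1 by 0.84 ± 0.23, 1.19 ± 0.23 and 1.24 ± 0.23. JJJ1, which acts in the maturation of the large ribosomal subunit, was at -1.21 ± 0.11, -1.09 ± 0.11 and -1.13 ± 0.11. All 5 genes of the ribosome-associated complex and the nascent chain complex, which share the ribosome with Ssb, were called lower with each method, with medians of -1.25, -1.41 and -1.42. ZUO1, the J-domain partner of Ssb, was at -1.93 ± 0.08 with Phenol and -2.08 ± 0.08 with RNeasy, with Direct-zol between them. EGD1 was at -1.09 ± 0.10, -1.30 ± 0.10 and -1.24 ± 0.10, and BTT1 at -0.41 ± 0.12, -0.42 ± 0.12 and -0.47 ± 0.12.

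Of 6 genes for Hsp90, its links to Hsp70, the disaggregase and Hsf1, 5 were called higher and 1 lower with each method, with medians of 2.10, 2.05 and 2.11. HSP104, the disaggregase that works with Ssa on aggregates, was higher by 4.67 ± 0.19, 4.60 ± 0.19 and 4.63 ± 0.19 on the log2 scale with Phenol, RNeasy and Direct-zol. HSP82, the inducible Hsp90, was higher by 4.35 ± 0.14, 4.24 ± 0.14 and 4.33 ± 0.14, and the co-chaperone CNS1 was at -0.73 ± 0.08, -0.92 ± 0.08 and -0.83 ± 0.08. Among 7 organelle Hsp70s and their exchange factors, 5 were called higher and 2 lower with each method, with medians of 0.37, 0.35 and 0.39. Both counts stand against 63.4 to 63.9% of all transcripts called in either direction. KAR2, the Hsp70 of the endoplasmic reticulum, was higher by 1.99 ± 0.18, 1.77 ± 0.18 and 1.78 ± 0.18, and SSC1, the main Hsp70 of mitochondria, by 1.40 ± 0.11, 1.28 ± 0.11 and 1.34 ± 0.11. MGE1, the exchange factor of SSC1, was at -0.76 ± 0.10, -0.77 ± 0.10 and -0.72 ± 0.10.

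For each member, the transcripts with the most similar pattern were found by Pearson correlation of log2(scaled TPM + 1) over the 24 libraries, among 5302 transcripts outside the members. The 24 libraries fall into heat-shocked and unstressed groups, so these correlations mainly describe the size and sign of the heat response, and no test was made. SSA4 was most like ALD3 (r = 0.9987) and HSP26 (0.9985), a small heat shock protein. SSE2 was most like HSP104 (r = 0.998), and SSA3 had HSP31 (0.997) and AHA1 (0.997), an activator of Hsp90, among its nearest 3. SSA2 was most like SSC1 (r = 0.994) and SSE1 most like HSP60 (0.9903), both of which encode chaperones of mitochondria. SSB1 was most like IMD4 (r = 0.998), an IMP dehydrogenase, and SSB2 most like ASC1 (0.998), a protein of the small ribosomal subunit. SSA1 was most like GRX2 (r = 0.995), FES1 most like LST8 (0.987) and SNL1 most like the histone gene HTB1 (0.963). Among the members, SSB1 and SSB2 had r = 0.999 and SSA3 and SSA4 r = 0.998.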

How the data were processed

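RNA-seq was measured in 24 libraries, 4 biological replicates of each combination of isolation method and treatment. The authors trimmed single-end 50-bp reads with Trimmomatic, mapped them to S288c (R64) with STAR and deposited TPM computed with RSEM, without scaling between libraries. How reads shared between genes were divided affects SSA1, SSA2, SSB1 and SSB2. The strand setting of the counting is not given in the sources used here. A second deposited table holds the authors' own edgeR comparisons and was not used. The TPM columns named Trizol were matched to the Direct-zol samples by their labels. TPM carry no read depth, which was not used here, so precision rests on the replicates.

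TPM were filtered (mean of at least 1 TPM in 1 group, 6137 of 6685 transcripts), scaled by a trimmed mean of log ratios against the mean library (30% of ratios and 5% of abundances trimmed) and converted to log2 after adding 1. The 6 groups and the biological replicate were factors of a model in limma 3.58.1 under R 4.3.3, with a trend in the empirical Bayes step and Benjamini-Hochberg adjustment over all transcripts. TPM are not counts, so limma took the place of a count test. Replicate numbers pair the samples because 1 culture gave all samples of a number. Library deviations from group means correlated at a mean r of 0.192 between libraries of the same number and treatment (24 pairs) and 0.0066 across treatments (36 pairs).

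The members and lists were chosen with earlier results of these data known. The genes named are all 10 members, the 2 highest and 1 lowest of each list by mean heat response, and, for each member, transcripts among the nearest 3 by correlation (mean of at least 10 TPM). Alternatives covered scaling (none, median of ratios, quantile), pseudocount (0.1), filter (none, 10 TPM), block (none, within treatment), only the compared libraries, each replicate left out, and paralog pairs summed. Promoters and ORFs were read from the RefSeq copy of R64 with Python 3.11.15, and 6006 of 6685 transcripts were found in its annotation by systematic name.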

Additional observations from a re-analysis of the deposited data

Results flagged for a closer look

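In 2 of the 60 combinations of member and group, 1 library stood apart from the other 3 by Dixon's criterion at the 95% level, where chance gives about 1 in 20. SSA2 in heat-shocked Direct-zol cells had 1 low library, replicate 1, with 6944 TPM, against 10054 to 10439 TPM in the others. SSE1 in unstressed Direct-zol cells had 1 high library, replicate 2, with 875 TPM, where the other 3 lay within 859.8 to 862 TPM.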

How the results depend on the processing

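The heat responses of all 10 members kept their direction and their call with each method under every alternative run that fitted them singly (390 of 390 values, largest limma adjusted p = 0.0043, for FES1 with Direct-zol). The summed paralog pairs were called in the same direction too, but a sum does not test the scarcer partner. Without scaling, the median heat response of all transcripts was 0.19, 0.26 and 0.29 on the log2 scale with Phenol, RNeasy and Direct-zol, and 62.7%, 66.6% and 69.0% of calls were higher, against 48.6%, 49.4% and 49.7% with scaling.

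After heat shock, the median over all transcripts without scaling was -0.33 between Phenol and RNeasy, -0.21 between Phenol and Direct-zol and 0.12 between the kits, and in unstressed cells -0.28, -0.11 and 0.16. The share of calls that were higher after heat shock was then 18.2%, 28.8% and 98.5% (51.7%, 51.2% and 83.1% with scaling), and in unstressed cells 735 of 3341 calls, 39.7% and 98.4% (52.7%, 51.5% and 75.3% with scaling), with 86.0% for RNeasy vs. Direct-zol in unstressed cells under quantile normalization. With only the compared libraries, the kits had 47.2% higher calls after heat shock and 38.6% in unstressed cells, and with the block within treatment 63.7% and 57.5%.

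Method differences moved more. For Phenol vs. RNeasy in unstressed cells, 5 members were called higher, against 3 without scaling (SSA2 and SSB1 higher, SNL1 lower), 3 under quantile normalization and 3 to 4 with 1 replicate left out. After heat shock, 5 members were called, and 3 under quantile normalization, where SSA4 was at -0.61 and not 0.16. For Phenol vs. Direct-zol in unstressed cells, 1 member was called, against 3 under quantile normalization, 4 with the replicate block within each treatment and 0 to 1 with 1 replicate left out. After heat shock, 3 members were called, against 1 without scaling, 5 with that block and 0 to 3 with 1 replicate left out. Of 6137 transcripts, that block called 3072 in unstressed cells and 2930 after heat shock. Between the kits, 0 members were called, against 3 in each treatment with the block within treatment and 3 with only the compared libraries.

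For RNeasy vs. Direct-zol, 239 transcripts were called in unstressed cells, against 740 without scaling, 402 with the block within treatment, 461 with only the compared libraries and 89 to 103 with 1 replicate left out. After heat shock the count was 272, against 462, 424 and, with 1 replicate left out, 83 to 155. The difference in heat response between Phenol and RNeasy had 0 transcripts called, and 1 with the block within treatment. With no replicate block, no call of a member changed. The cause of these shifts was not tested. Among results not called either way, 77 values took the other sign under some alternative.

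Limits: TPM carry no depth, relative abundances cannot show a change common to most transcripts, and reads shared by SSA1 and SSA2 or by SSB1 and SSB2 cannot be checked from TPM.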
